A study of Mus musculus with 15 samples.

Results

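In fully grown mouse oocytes of a Tle6 knockout line, 8 of 53700 counted genes were taken for a wide difference between the genotypes: Il20ra, Skint5, Skint6, Defb41, Plcl1, Gpat3, Pknox2 and Smg9. They were chosen by their counts in the Tle6 line itself, low in one genotype and well expressed in the other. Gpat3 and Smg9 were low and not near 0 in the KO, and Il20ra, Skint5 and Skint6 were at or near 0 in 1 het library as well. Their difference in that line is therefore given as a description and was not tested. The same genes were read in a Padi6 knockout line, which played no part in the choice, and were tested there.

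Each library came from polyadenylated RNA of 15 oocytes at the germinal vesicle stage, before meiosis resumes. The Padi6 line, of FVB/N strain background, had 3 Padi6 heterozygous (het) and 3 Padi6-/- knockout (KO) biological replicates. The Tle6 line, of C57BL/6J strain background, had 2 Tle6 heterozygous and 4 Tle6-/- biological replicates in 9 libraries. For het replicates 1 and 2 and KO replicate 4 of the latter, the labels list a technical library A and a technical library B. No wild-type group was analysed here, so both controls carry 1 mutant allele, although sample names in brackets call them WT. The labels give neither the age nor the number of the females. They also do not say whether replicates came from separate animals, so p-values measure only the spread between these samples. Line and strain background cannot be told apart in this design.

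TLE6 and PADI6 are maternal proteins of the oocyte that are known to be needed for its cytoplasmic lattices, fibrous arrays that store proteins for the early embryo. A growing oocyte transcribes and stores most of the RNA it will need, and transcription falls silent before meiosis resumes, so its polyadenylated RNA is largely a stored pool. Laboratory mouse strains carry different haplotypes, and some genes are known to be expressed in one strain and silent in another. The 8 genes are protein-coding. Defb41 and Plcl1 are annotated on chromosome 1, Skint5 and Skint6 on chromosome 4, Gpat3 on chromosome 5, Smg9 on chromosome 7, Pknox2 on chromosome 9 and Il20ra on chromosome 10.

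Libraries held 30100177 to 74947533 counts in genes, and levels are counts-per-million (CPM) of all counts assigned to genes in a library. CPM are not scaled by transcript length, so levels are compared between libraries and not between genes. A count of 0 allows up to 3 counts, which is 0.04 to 0.0997 CPM at these depths, for counting error only. The knocked-out genes followed their labels. Tle6 was at 234 to 600 CPM in the 4 het libraries and 61.5 to 98.2 CPM in the 5 KO libraries of its line, a log2 fold change (KO over het) of -2.40 ± 0.21 (SE; adjusted p = 0.00167, edgeR's quasi-likelihood test with Benjamini-Hochberg adjustment). The lowest and the highest of these het libraries were B and A of het replicate 2. With only library A of that replicate the Tle6 log2 fold change was -2.68, and with only library B -2.21. Padi6 was at 1737 to 1852 CPM in the het and 19.3 to 26.6 CPM in the KO libraries of its line. All 12 oocyte markers, zona pellucida genes among them, were detected in every library. They summed to 25350 to 28250 CPM in the Padi6 line. In the Tle6 line the lowest sum was 15000 CPM, in library B of het replicate 2, and the highest 23720 CPM, in its library A. The 20 granulosa and cumulus markers summed to 646 to 785 CPM in the Padi6 line and 395 to 718 CPM in the Tle6 line, nearly all of it Serpine2, Nr5a2 and Cyp19a1, and the other 17 summed to 14.1 to 39.3 CPM. The 7 theca and stroma markers moved with the Tle6 genotype without overlap: they summed to 2.97 to 5.46 CPM in the het and 0.901 to 1.98 CPM in the KO libraries, with a median log2 fold change of -1.89 over the 3 tested, and their part in the results was not tested. In the Padi6 line they summed to 0.787 to 4.25 CPM. The 8 blood and immune markers summed to at most 1.89 CPM.

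Het replicate 2 of the Tle6 line stood apart, because its technical libraries A and B did not match. Across 13364 genes, Pearson's r of log2(CPM + 1) was 0.999 between libraries A and B of het replicate 1 and 0.998 for KO replicate 4, but 0.939 for het replicate 2. Library 2A correlated best with KO replicate 2, at 0.964, and library 2B with library 1B of het replicate 1, at 0.963. Because 4 of the 8 genes were present in one of these libraries and at or near 0, or many times lower, in the other, each gene is given below in every library.

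**Figure D1:**
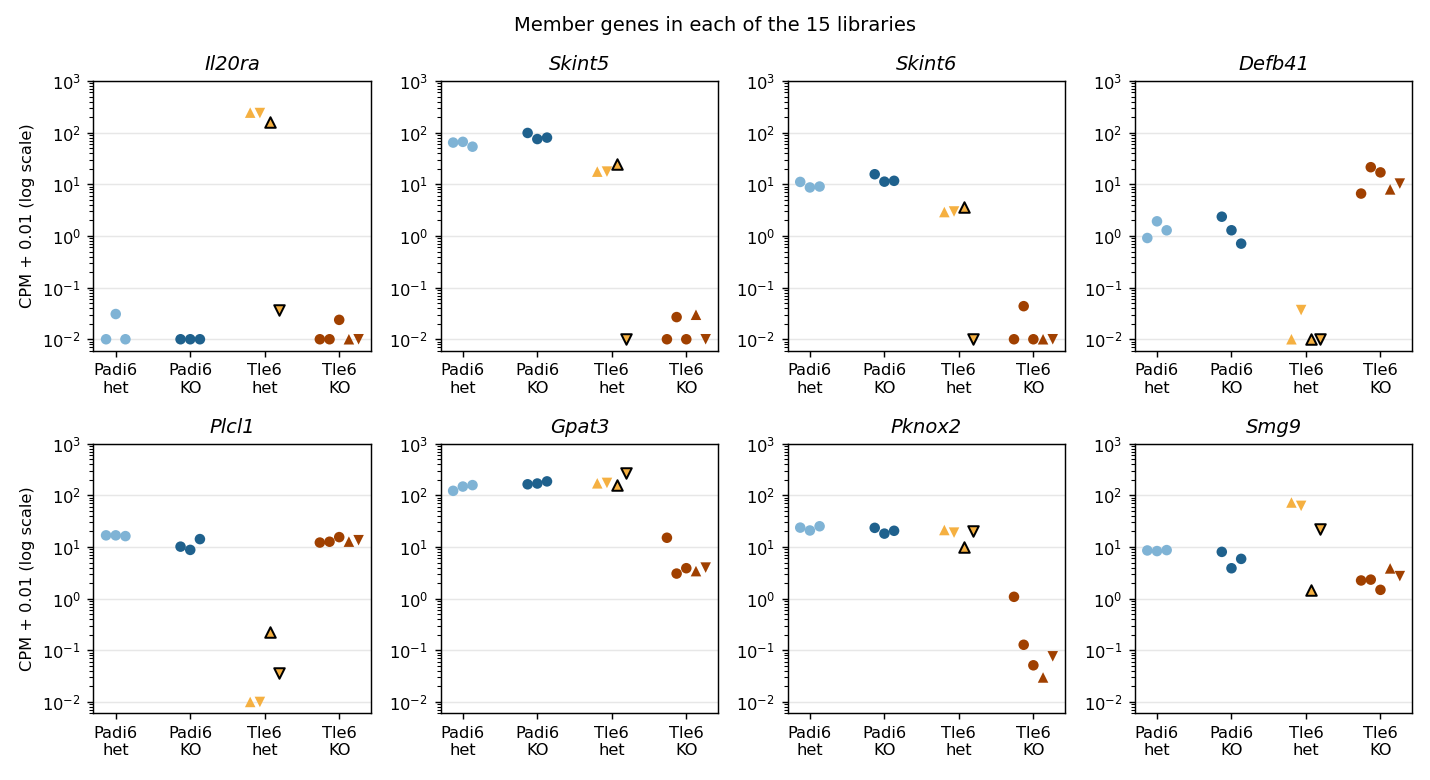
Level of each of the 8 genes in each of the 15 libraries, as CPM + 0.01 on a log axis, by line and genotype (het, heterozygous; KO, knockout). Upward and downward triangles are technical libraries A and B, and black edges mark Tle6 het replicate 2. Il20ra, Skint5 and Skint6 are at or near the floor in library 2B and high in library 2A, while the Padi6 line sits with the Tle6 het, with the Tle6 KO, or with neither, depending on the gene.

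Il20ra, Skint5, Skint6 and Defb41 encode surface or secreted proteins known from epithelial immunity. Il20ra (ENSMUSG00000020007.5) encodes the alpha subunit of receptors for cytokines of the interleukin-10 family, which pairs with the product of Il20rb. In the Tle6 het, Il20ra was at 244 CPM in library 1A, at 240 CPM in library 1B and at 161 CPM in library 2A. Library 2B, the deepest of all, held 2 counts of it, or 0.0267 CPM. The 5 Tle6 KO libraries held 1 count in all, in KO replicate 3. The 6 Padi6-line libraries also held 1 count in all, in het replicate 2. So Il20ra was on in 3 of 15 libraries, all labelled Tle6 het. Since each library pools 15 oocytes, fewer oocytes with a transcript and less of it per oocyte cannot be told apart. Summed over libraries, the Tle6 line had 28377 het counts and 1 KO count, a ratio per gene count of 35630. Its exact binomial 95% counting interval was 6395 to 1407000. Here and below, such an interval covers counting error of the pooled libraries only. It leaves out the spread between replicates and libraries, such as the 2 counts in library 2B, and the choice of the genes by this difference. The fitted log2 fold change was -14.85 ± 0.81 (SE, n = 2 het and 4 KO), and with so few KO counts its size depends on the prior count of the fit.

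Skint5 and Skint6 belong to a cluster of butyrophilin-like genes that mouse skin and thymus are known to express. They were each other's nearest expressed neighbours and the most alike pair among the 8 genes, with r = 0.99 over the 15 libraries. Of the 50-base words in Skint5 transcripts, 3.97% also occurred in Skint6, and 4.64% the other way. Some reads of each gene may therefore not have been placed in one of them, which was not measured. The promoters are shown because the genes moved together. From RefSeq (GRCm38.p6), 250 bases before to 50 after the annotated start, the sequences agreed at 269 of 300 bases (89.7%), and capitals mark the 31 bases that differ.
Skint5, chr4:113999454-113999753, minus strand: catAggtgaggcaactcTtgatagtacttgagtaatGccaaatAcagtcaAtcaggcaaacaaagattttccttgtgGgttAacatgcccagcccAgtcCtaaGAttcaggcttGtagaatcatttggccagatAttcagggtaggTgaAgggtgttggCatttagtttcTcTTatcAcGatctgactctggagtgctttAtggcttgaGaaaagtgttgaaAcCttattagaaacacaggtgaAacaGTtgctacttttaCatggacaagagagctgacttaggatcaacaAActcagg
Skint6, chr4:113286924-113287223, minus strand: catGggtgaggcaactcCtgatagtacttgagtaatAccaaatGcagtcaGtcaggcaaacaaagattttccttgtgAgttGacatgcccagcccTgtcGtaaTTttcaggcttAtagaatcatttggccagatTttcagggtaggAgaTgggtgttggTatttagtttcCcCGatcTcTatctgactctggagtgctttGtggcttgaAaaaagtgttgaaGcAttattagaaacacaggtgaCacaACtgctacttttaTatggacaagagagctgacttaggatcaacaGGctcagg

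Skint5 (ENSMUSG00000078598.12) was at 17.6 CPM in both libraries of Tle6 het replicate 1 and at 24.3 CPM (989 counts) in library 2A, and library 2B held 0 counts. The Tle6 KO libraries held 2 counts in all, 1 in KO replicate 2 and 1 in library A of KO replicate 4. The Padi6 line had Skint5 at 64.3, 66.4 and 53.5 CPM in the het and at 98.7, 75.3 and 80.2 CPM in the KO replicates. All 6 Padi6-line libraries were above all 9 Tle6-line libraries. The Tle6-line ratio, het over KO, was 1615 (exact binomial 95% counting interval 447 to 13340), and the fitted log2 fold change was -10.59 ± 0.58. Within the Padi6 line the KO replicates were all higher, with 84.7 ± 12.4 against 61.4 ± 6.93 CPM (SD, n = 3 each), a log2 fold change of 0.48 ± 0.12 (SE). This did not pass the threshold in edgeR's quasi-likelihood test (adjusted p = 0.0731), and it did with DESeq2 (0.0125) and with no filter on low counts (0.00732).

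Skint6 (ENSMUSG00000087194.10) followed the same order at a lower count. It was at 2.89, 2.97 and 3.68 CPM in libraries 1A, 1B and 2A of the Tle6 het, with 0 counts in library 2B. KO replicate 2 held 2 counts and the other 4 Tle6 KO libraries held 0. The Padi6-line het replicates had 11.1, 8.69 and 9.05 CPM and the KO replicates 15.7, 11.3 and 11.7 CPM. The Padi6 genotypes did not overlap, and the log2 fold change of 0.44 ± 0.17 did not pass (adjusted p = 0.208). The other 9 Skint genes summed to 0.0381 to 0.246 CPM per library and none had enough counts to be tested.

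Defb41 (ENSMUSG00000067773.7) encodes a beta-defensin, one of a family of small secreted antimicrobial peptides, many of which are known from the epididymis. It ran the other way from the genes above. The 4 Tle6 het libraries held 1 count in all, in library 1B. The first 3 Tle6 KO replicates had 6.61, 21.4 and 17.0 CPM, and replicate 4 had 7.96 CPM in its A and 10.3 CPM in its B library. KO over het, the ratio was 2806 (exact binomial 95% counting interval 503 to 110800) and the fitted log2 fold change 10.86 ± 0.93. The Padi6 line lay between these groups, at 0.903, 1.91 and 1.28 CPM in the het and 2.35, 1.28 and 0.700 CPM in the KO replicates. Among the 8 genes, Defb41 alone had every Padi6-line library between all 4 het and all 5 KO libraries of the Tle6 line. The Padi6 genotypes overlapped, with a log2 fold change of 0.10 ± 0.43 (adjusted p = 0.933).

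Plcl1 and Gpat3 act in signalling and lipid synthesis. Plcl1 (ENSMUSG00000038349.11) encodes a phospholipase C-like protein that binds inositol phosphates and lacks catalytic activity. It was off in the Tle6 het and on in the KO. Libraries 1A and 1B held 0 counts, library 2A 9 counts (0.221 CPM) and library 2B 2 counts. The 5 Tle6 KO libraries had 12.2, 12.7, 15.5, 12.7 and 13.6 CPM, a ratio over het of 252 (exact binomial 95% counting interval 141 to 506) and a fitted log2 fold change of 7.81 ± 0.75. The Padi6 line had the KO state: its het replicates were at 16.8, 16.8 and 16.3 CPM and its KO replicates at 10.2, 8.79 and 14.2 CPM. Within that line the KO replicates were all lower, with 11.1 ± 2.82 against 16.6 ± 0.319 CPM (SD, n = 3 each). The log2 fold change of -0.57 ± 0.19 did not pass in edgeR's test (adjusted p = 0.145) nor with DESeq2 (0.0504), and it did with no filter on low counts (0.0302).

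Gpat3 (ENSMUSG00000029314.15) encodes a glycerol-3-phosphate acyltransferase, which catalyses the first step of glycerolipid synthesis. Its Tle6 het libraries were at 171, 174, 160 and 267 CPM and its KO libraries at 15.1, 3.05, 3.88, 3.40 and 3.99 CPM. All 4 het libraries, 2B included, were above all 5 KO libraries, and KO replicate 1 was the highest of the KO replicates. Thus Gpat3 was lower and not absent in the KO, by a ratio of 36.6 and a fitted log2 fold change of -5.11 ± 0.64. The Padi6 line had the het state, with 122.5, 148 and 158 CPM in the het and 164, 170 and 187 CPM in the KO replicates. These did not overlap, and their log2 fold change of 0.30 ± 0.12 did not pass (adjusted p = 0.223). Of the 50-base words in Gpat3 transcripts, 3.38% also occurred in the annotated gene Gm42987.

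Pknox2 and Smg9 act in the nucleus and on RNA. Pknox2 (ENSMUSG00000035934.17) encodes a homeodomain transcription factor of the TALE class, which binds DNA with PBX partners. It was at 21.3, 19.0, 10.1 and 20.9 CPM in the Tle6 het libraries. The KO libraries were at 1.08, 0.118, 0.0413, 0.0198 and 0.0664 CPM, again with KO replicate 1 highest. The ratio of het over KO was 77.0 and the fitted log2 fold change -6.15 ± 1.03. Its Padi6-line levels were 23.7, 20.9 and 25.2 CPM in the het and 23.5, 18.2 and 20.6 CPM in the KO replicates, overlapping each other and the Tle6 het. The Padi6-line log2 fold change was -0.15 ± 0.14 (adjusted p = 0.62).

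Smg9 (ENSMUSG00000002210.12) encodes a partner of the SMG1 kinase, which starts nonsense-mediated decay of messenger RNA. Its level varied widely between the Tle6 het libraries. It reached 72.7 and 62.6 CPM in het replicate 1, 21.9 CPM in library 2B and only 1.47 CPM in library 2A. Library 2A was within the range of the KO libraries, at 2.24, 2.33, 1.47, 3.84 and 2.72 CPM, so the lower of the A and B libraries was 2A here and 2B for Il20ra and the Skint genes. The fitted log2 fold change was -4.27 ± 0.53. The Padi6 line had 8.57, 8.34 and 8.70 CPM in the het and 8.05, 3.87 and 5.89 CPM in the KO replicates. It lay above every Tle6 KO library and below libraries 1A, 1B and 2B. Its KO replicates were all below its het replicates, by a log2 fold change of -0.51 ± 0.24 that did not pass (adjusted p = 0.289).

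**Figure D2:**
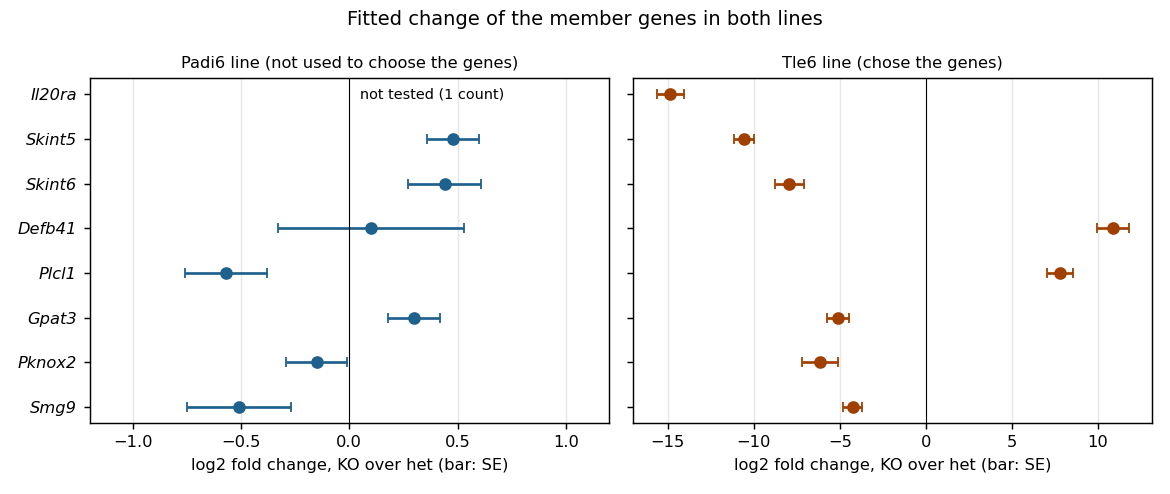
Fitted log2 fold change of KO over het for the 8 genes in each line. Bars are the approximate SE derived from the F statistic, which can be too small at few counts. The 2 panels have different axes. In the Padi6 line the 7 tested genes lie between -0.57 and 0.48, and Il20ra, with 1 count, was not tested. In the Tle6 line, which chose the genes, they lie between -14.85 and 10.86.

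Set side by side, the Padi6 line shared the Tle6 het level for Gpat3 and Pknox2 and the Tle6 KO level for Plcl1 and Il20ra. For Skint5 and Skint6 it was above both genotypes. For Defb41 it was above every het and below every KO library. For Smg9 it was above every KO library and within the range of the het libraries, above 2A and below the others. Thus neither Tle6-line genotype was the one that resembled the Padi6 line for all 8 genes. Between the Padi6 genotypes, 0 of the 7 tested genes passed the adjusted threshold of 0.05 in edgeR's quasi-likelihood test, where 2.41% of the 18228 genes tested did. An unadjusted p under 0.05 was found for 4 of the 7 and for 18.6% of all genes tested. DESeq2 called 1 of the 7, Skint5, and 7.74% of the genes to which it gave an adjusted p. The replicates of the Padi6 genotypes did not overlap for 5 of the 7 genes, Skint5, Skint6, Plcl1, Gpat3 and Smg9, and for 23.6% of all genes tested. In the Tle6 line the genotypes' replicates were apart for 8 of the 8 genes, as their choice fixed, and for 30.1% of all genes tested there. Skint5, Skint6, Plcl1 and Gpat3 were apart in both lines in opposite directions, as were 3.97% of 17628 genes tested in both, and Smg9 was apart in both in the same direction, as were 3.43%.

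A numeric form of the rule shows where the 8 genes stand. A gene was counted as on-off when every biological replicate of one genotype was under 1 CPM and every replicate of the other at 5 CPM or more, with libraries A and B added and library sizes TMM-scaled. In the Tle6 line 14 of 10409 genes with 5 CPM or more in a replicate met it, or 0.134%, and in the Padi6 line 0 of 10162, or 0.0%. Il20ra, Skint5, Defb41 and Plcl1 were among the 14. Skint6 missed because its summed het replicates were at 1.30 and 2.93 CPM, and Pknox2 because KO replicate 1 was at 1.08 CPM. Gpat3, at 3.05 CPM or more in each KO replicate, and Smg9, at 1.47 CPM or more, were not near 0 in the KO. With the lower limit raised to 2 CPM, 24 genes met the rule and Pknox2 joined. With limits of 0.5 and 10 CPM, 5 genes met it, Il20ra, Skint5 and Plcl1 among them.

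Of the 14 genes, 8 were on in the Tle6 KO and 6 in the het. Besides Plcl1 and Defb41, the named protein-coding genes on in the KO were D5Ertd577e (mean 44.0 CPM, chromosome 5) and Coro2b, an actin-binding coronin (12.1 CPM, chromosome 9). Those on in the het besides Il20ra and Skint5 were Meiob, a meiotic recombination factor (12.8 CPM, chromosome 17), Prr15l (8.96 CPM, chromosome 11), Crispld1 (6.47 CPM, chromosome 1) and the neuregulin receptor gene Erbb4 (6.22 CPM, chromosome 1). Chromosome 1 held 4 of the 14, 2 in each direction. Chromosomes 5 and 9 held 3 each, all on in the KO. The 8 KO-on genes thus lay on 3 chromosomes and the 6 het-on genes on 5. The share of all genes on these chromosomes was not computed, and the grouping was not tested. The Padi6 line had 2 of the 8 KO-on genes on, 1 off and 5 in between, and it had 1 of the 6 het-on genes on, 2 off and 3 in between. It was thus on, off or between in both directions.

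**Figure D3:**
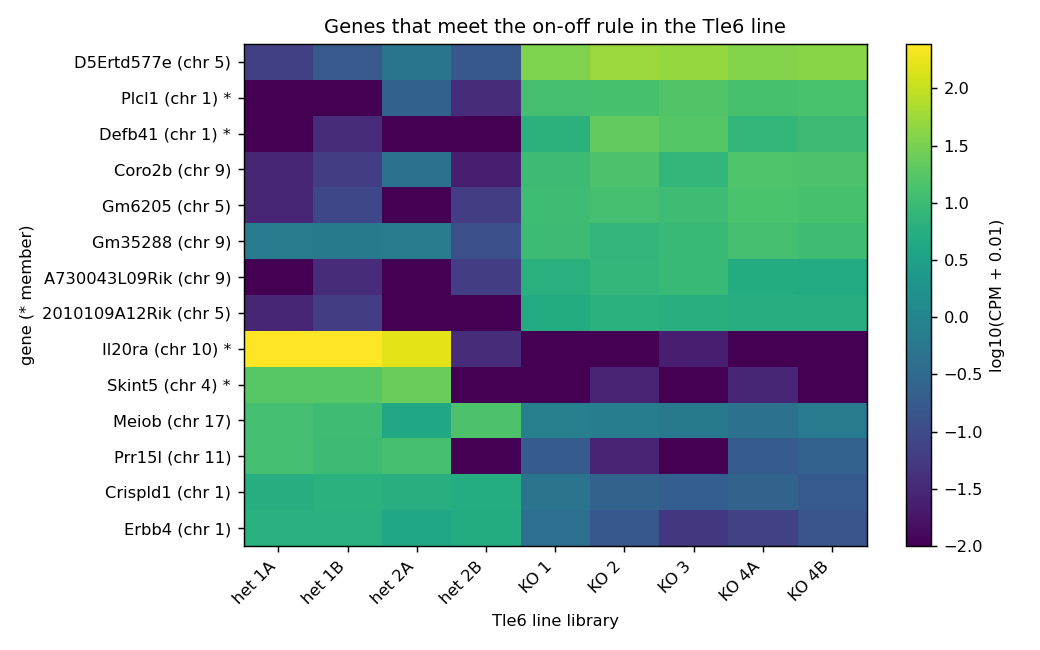
The 14 genes that met the numeric on-off rule in the Tle6 line (lines of the grid; asterisk, one of the 8 genes) in each of the 9 libraries of that line, coloured by log10(CPM + 0.01). The 8 upper genes are low in all 4 het libraries and high in all 5 KO libraries, whereas Il20ra, Skint5 and Prr15l are high in libraries 1A, 1B and 2A and low in library 2B.

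The genes on in the KO were low in both libraries of het replicate 2, with 8 of 8 under 1 CPM in library 2A and in library 2B. The genes on in the het split: of 6, library 2B was under 1 CPM for 3 (Il20ra, Skint5 and Prr15l) and at 5 CPM or more for 3, and library 2A was under 1 CPM for 0. With each of the 9 libraries counted on its own, 9 genes met the rule, 8 on in the KO and 1 in the het, and only Defb41 and Plcl1 of the 8 genes remained. With library 2A alone for het replicate 2, 15 genes met it and Il20ra, Skint5, Defb41 and Plcl1 were among them. With library 2B alone, 13 met it and Defb41 and Plcl1 were among them. The het-on state of Il20ra and Skint5 therefore rested on which library of het replicate 2 was used, and that of Defb41 and Plcl1 in the KO did not.

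Over all genes, 78 of 9648 were under 1 CPM in one library of het replicate 2 and at 5 CPM or more in the other, 57 on in library A and 21 in library B. No gene did so between the libraries of het replicate 1 (of 9075) or of KO replicate 4 (of 9377). Between libraries 1A and 1B, the ratio of the higher to the lower CPM was 1.00 to 1.16 for the 6 genes present there, and between libraries 4A and 4B it was 1.07 to 1.41 for Defb41, Plcl1, Gpat3 and Smg9. In het replicate 2, library B was higher by 14.9 times for Smg9, 2.07 times for Pknox2 and 1.67 times for Gpat3. The granulosa and cumulus markers had a sum of 675 CPM in library 2A, 451 CPM in library 2B and 407 to 408 CPM in het replicate 1. Of these sums Serpine2, a protease inhibitor gene, made up 536, 350 and 316 to 317 CPM. Without Serpine2, Nr5a2 and Cyp19a1, singled out after their values were seen, the other 17 summed to 18.4 CPM in library 2A, 14.1 CPM in library 2B and 17.0 to 18.0 CPM in het replicate 1. Of the 7 epithelial markers, the cadherin gene Cdh1 was at 235 against 158 CPM in these libraries (2A, 2B), and Epcam at 35.6 against 1.45 CPM. Trp63 differed little between them, at 22.2 against 20.4 CPM, and was at 29.9 to 36.8 CPM in the Tle6 KO libraries. The keratins were near 0. Serpine2 was at 581 and 558 CPM and Cdh1 at 257 and 263 CPM in KO replicates 2 and 3, and Epcam at 2.24 and 1.57 CPM. The part of these markers in the results was not tested.

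**Figure D4:**
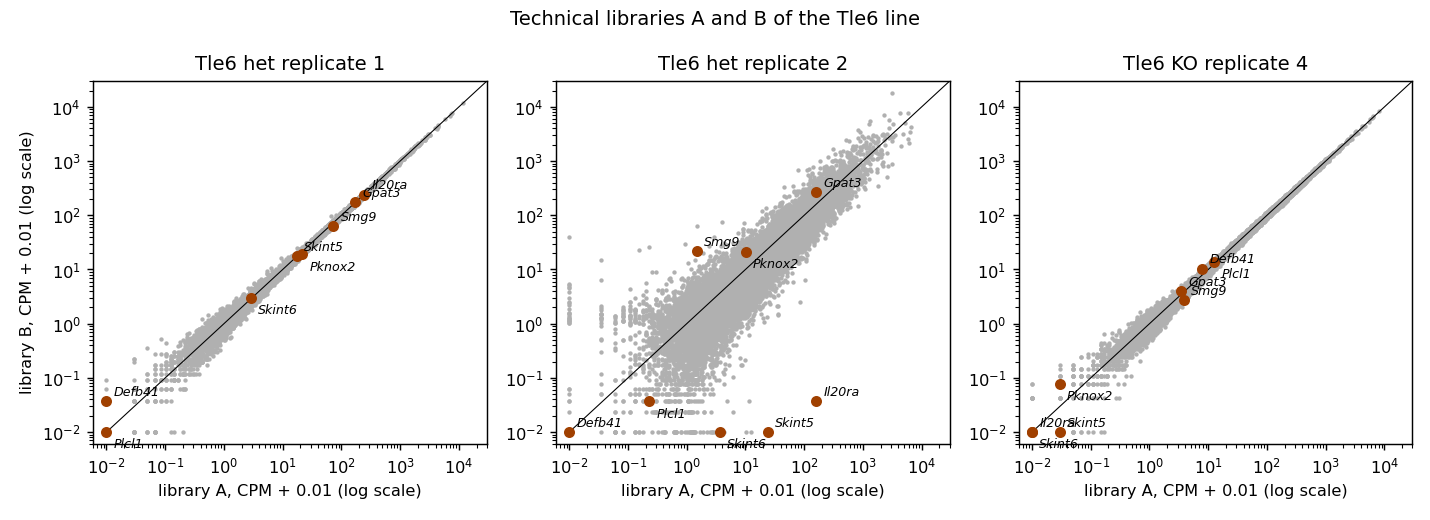
Level of every gene (grey) and of the 8 genes (brown, named) in technical library A against library B of the same biological replicate, as CPM + 0.01 on log axes with the line of equality. Het replicate 1 and KO replicate 4 lie along the line, whereas in het replicate 2 Il20ra, Skint5 and Skint6 lie far below it and Smg9 above it.

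Across the Tle6 line, 49 genes were either under 1 CPM or at 5 CPM or more in each of the 9 libraries and took both states, in 12 patterns of libraries. This listing was made after the values were seen. The most frequent pattern, with 8 genes, was on in all KO and off in all het libraries, and Defb41 and Plcl1 had it. Il20ra and Skint5 shared with Inpp4b, a phosphoinositide phosphatase gene, and Prr15l the pattern of libraries 1A, 1B and 2A on and all others off. A further 6 genes (Dnaja4, Nkiras2, Sbno2, Sox15, Syvn1 and Tmem120a) were off in library 2B alone, and 7 genes were on in library 2A alone. Only the pattern of those 8 genes and that of Crispld1, on in all het and off in all KO libraries, followed genotype in every library.

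The genes whose levels ran closest to each of the 8 lay mostly on other chromosomes, where most of the genes compared also lie. Nothing about linkage is read from this. Pearson's r of log2(CPM + 1) was taken over the 15 libraries for 9769 genes, as a description, since all points share the lines and libraries. Il20ra ran with Prr15l (0.995), Inpp4b (0.983) and Hinfp (0.916). Skint5 ran with Fmo5 (0.987), a flavin monooxygenase gene, and Batf3 (0.979), and Skint6 also ran with Fmo5 (0.987). Fmo5, like Skint5, was higher in the Padi6 line, at 20.6 to 25.8 CPM against 7.08 to 17.9 CPM in the Tle6 line.

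Plcl1 ran with D5Ertd577e (0.991), Stk36 (0.985), a kinase gene also on chromosome 1, and Uba6 (0.97), a ubiquitin-activating enzyme gene. Stk36 was at 7.17 to 15.8 CPM in the Tle6 het, 190 to 286 CPM in the Tle6 KO and 214.5 to 318 CPM in the Padi6 line. Gpat3 and Pknox2 both ran closest to Erbb4 (0.985 and 0.99) and to each other (0.98). Erbb4 was at 4.08 to 6.10 CPM in the Tle6 het, 0.0413 to 0.395 CPM in the KO and 4.68 to 6.24 CPM in the Padi6 line. Next for Gpat3 came Epha3 (0.968) and Got1 (0.961), and for Pknox2 Prkd3 (0.979) and Kctd5 (0.972). Defb41 ran with Rassf6 (0.961), Slc30a2 (0.94) and Sac3d1 (0.938). Smg9 ran with Gpaa1 (0.959), Coro2a (0.921) and Esrp1 (0.904). Gpaa1, like Smg9, was lower in library 2A than in 2B, at 3.19 against 17.9 CPM.

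Most genes next to the 8 did not pass the Tle6-line test. Skint5 and Skint6, which are neighbours and moved together, are left out of the count that follows. Of 28 different protein-coding genes that were the nearest expressed neighbours, 2 on either side, 2 passed the Tle6-line test, where 1.62% of 20276 genes did. Whether neighbours passed more often than other genes was not tested. Crispld1, next to Defb41 on chromosome 1, had a log2 fold change of -4.49 ± 0.42 (adjusted p = 0.00205, edgeR), the opposite way to Defb41. Crispld1 also met the numeric on-off rule, as a gene on in the het. Rftn2, the second gene before Plcl1 and a gene of the raftlin family of membrane raft proteins, rose by 3.26 ± 0.43 (adjusted p = 0.00919), the same way as Plcl1. Its het libraries were at 0.427 to 0.884 CPM and the KO mean was 7.51 CPM. Without het replicate 1 or het replicate 2, Rftn2 no longer passed (adjusted p = 0.059 and 0.0857). Mars2, closer to Plcl1 than Rftn2 is, had a log2 fold change of -0.06 that did not pass. Around Il20ra, Perp, Arfgef3, Pex7 and Map3k5 had log2 fold changes of -0.57 to -0.24 and none passed. Outside the Skint pair, Spata6 had -0.96 ± 0.20 (adjusted p = 0.0523), Foxd2 1.82, Cmpk1 -0.20 and Bend5 0.10, and none passed. Around Gpat3 the range was -1.28 (Nkx6-1) to 0.67 (Cds1), around Pknox2 -0.74 (Tmem218) to 0.26 (Slc37a2) and around Smg9 0.44 (Zfp94) to 2.88 (Zfp428), with none past the threshold. In the Padi6 line 2 of these neighbours passed, Tfap2b near Defb41 (log2 fold change 0.66, adjusted p = 0.0478) and 1700066M21Rik near Plcl1 (-0.61, adjusted p = 0.02). Tfap2b did not pass when any 1 replicate was left out (adjusted p of 0.0835 to 0.181), and 1700066M21Rik did not without het replicate 3, KO replicate 2 or KO replicate 3 (0.0784, 0.106 and 0.0682).

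The families of the 8 genes were taken without these genes themselves. Between the Tle6 genotypes, 0 of 11 tested genes of the interleukin-20 receptor and ligand system passed in edgeR's test, 0 had an unadjusted p under 0.05 and 0 passed with DESeq2, with a median log2 fold change of -0.19 against 0.06 over all genes tested. Il20rb, the partner of Il20ra, was at 0 to 1.21 CPM in all 15 libraries, and Il22ra1, whose product also pairs with that of Il20rb, had 11 counts in all. Il10rb, the subunit shared by related receptors, was at 10.3 to 20.8 CPM, and the ligand gene Il20 at 1.79 to 3.47 CPM. In the Padi6 line 1 of 10 rose: the cytokine gene Il22 went from 1.01 to 1.26 CPM in the het to 2.30 to 2.89 CPM in the KO replicates, by a log2 fold change of 1.14 ± 0.25 (adjusted p = 0.0459). It did not pass when any 1 of the 6 replicates was left out (adjusted p of 0.0719 to 0.167).

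Around the other genes, no list had a member past the threshold in edgeR's test in either line. In the Tle6 line the median log2 fold change was 0.59 over 7 tested beta-defensins, -0.05 over 9 phospholipase C genes, 0.16 over 18 glycerolipid synthesis genes, -0.25 over 12 TALE homeobox genes and 0.05 over 18 genes of nonsense-mediated decay. An unadjusted p under 0.05 was found for 1, 1, 3, 4 and 3 of them and for 19.0% of all genes tested in that line, and DESeq2 called Gpat2, Tgif1 and Upf1 among them and 7.88% of the genes to which it gave an adjusted p. The corresponding Padi6-line counts were 0 of 6, 1 of 10, 4 of 18, 2 of 10 and 4 of 18, and DESeq2 called Plcb4. Among them Defb8 differed by line, at 1.47 to 4.85 CPM in the Tle6 line and at most 0.109 CPM in the Padi6 line. Pknox1, the paralogue of Pknox2, was at 2.34 to 9.35 CPM in the Tle6 het and 11.9 to 21.9 CPM in the KO libraries, with a log2 fold change of 1.24 ± 0.45 that did not pass (adjusted p = 0.187). Of the granulosa and cumulus markers, 0 of 18 passed in the Tle6 line (median 0.65), 5 had an unadjusted p under 0.05 and DESeq2 called Inha. In the Padi6 line 1 of 16 rose, the hyaluronan synthase gene Has2, by 2.19 ± 0.31 (adjusted p = 0.0109), against a list median of -0.51, and 6 had an unadjusted p under 0.05. DESeq2 called Has2 and 3 genes with lower KO levels there, Amhr2, Fshr and Inha, whose log2 fold changes of -2.77, -2.13 and -2.75 did not pass in edgeR's test (adjusted p of 0.109, 0.091 and 0.0925). Of the oocyte, theca and stroma, blood and immune, and epithelial markers none passed in either line in edgeR's test. An unadjusted p under 0.05 was found for 2, 3, 0 and 3 of them in the Tle6 line and 1, 1, 1 and 1 in the Padi6 line. DESeq2 called Col3a1, Pdgfra, Epcam and Krt8 in the Tle6 line and Nobox and Krt8 in the Padi6 line.

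Genes with known strain alleles carried few counts. H2-Ea is a class II histocompatibility gene whose promoter is deleted in the haplotype that C57BL/6 mice carry. It was counted under the annotated name H2-Ea-ps. Its level was 2.93, 3.10 and 2.47 CPM in libraries 1A, 1B and 2B of the Tle6 het and 0.0982 CPM in library 2A. The Tle6 KO libraries had 0.0138 to 0.461 CPM and the Padi6 line 0.298 to 1.77 CPM. The log2 fold change in the Tle6 line was -3.43 ± 0.78 (adjusted p = 0.0684). Apobec3 had 70 counts over all libraries. Nnt is annotated under 2 overlapping identifiers, which had 10 and 0 counts in all. The strain haplotype at the 8 genes and at H2-Ea was not analysed here in either line, and its part in their levels was not tested.

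Promoters were matched in RefSeq for 7 of the 8 genes, Pknox2 being the exception. They had no base composition in common. Plcl1, Gpat3, Smg9 and Il20ra had 70.7, 64.3, 63.0 and 57.3% G + C and 30, 23, 30 and 13 CpG, and Skint5, Skint6 and Defb41 had 41.7, 43.0 and 29.7% and 1, 2 and 0 CpG. The median over 27025 promoters of that length was 52.7% and 7 CpG. The letters TATAAA, searched on both strands, were found in Skint6 alone, and in 14.2% of all promoters. CANNTG was found in Il20ra, Skint5, Skint6 and Plcl1 and in 72.1% of all, and TAATTG in none of the 7 and in 8.15% of all.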

How the data were processed

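The authors deposited, for each of 15 libraries, whole-number read counts per gene, not normalised. Per the submitters' processing notes, bcl2fastq 2.20.0.422, cutadapt 2.8, STAR 2.7.8a, HTSeq 2.0.2 and the build mm39 were used; the library kit was QIAseq FX Single Cell RNA, according to the protocol labels. No source used here gives the annotation release or the strand setting, so overlapping and antisense genes are uncertain. Reads with several alignments (12.09 to 14.51% of a table), in overlapping genes (3.85 to 4.2%) or outside genes (5.39 to 7.29%), and 92 spike-ins stayed out of library sizes and tests.

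Of 53700 identifiers, 52147 were matched to GENCODE M21 (GRCm38), used for symbols, types, chromosomes and gene order only. Technical libraries were added, and each line was fitted alone with edgeR 4.0.16 (R 4.3.3; TMM, filterByExpr, robust glmQLFit, two-sided glmQLFTest, Benjamini-Hochberg adjustment over all genes tested, threshold 0.05). The fits were also run on simulated counts, with a single spread below the one fitted in the Tle6 line and moderate changes only. That run does not cover genes near 0 in one group. DESeq2 1.42.0, RLE scaling, no filter, a block for the replicate number, 1 library of het replicate 2 and each replicate left out were alternatives; counting the 9 libraries separately was added after seeing the data. Counting intervals are exact binomial (95%, SciPy 1.17.1) and leave out all error but counting, since reads are not independent molecules.

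The 8 genes and the gene lists were chosen with earlier results of these data known. Besides these and the targeted genes, the text names for each of the 8 the 3 protein-coding genes most alike it, its 2 nearest expressed protein-coding neighbours on each side, other on-off genes of the Tle6 line (protein-coding, not Gm or Rik names), list members past a test, and Nnt, Apobec3 and H2-Ea. A few genes that this rule names are not reported here. Defb8, Pknox1, the members of the interleukin-20 system, the markers singled out, the genes DESeq2 alone called and those of the library patterns were named after their values were seen.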

Additional observations from a re-analysis of the deposited data

Results flagged for a closer look

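In the Tle6 KO, Gpat3 and Pknox2 had 1 replicate far from the other 3 on the CPM scale, by Dixon's 95% criterion, which chance meets in about 1 in 20 groups. Gpat3 was at 15.11 CPM in KO replicate 1, against 3.05 to 3.88 CPM in the others, and Pknox2 was at 1.076 CPM in the same replicate. Il20ra was at 0.01375 CPM in KO replicate 3, which is 1 count, and Skint6 at 0.03372 CPM in KO replicate 2, which is 2 counts. Their other 3 replicates tie at 0, so any count meets the criterion, and nothing is read from it here.

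For 4 of the 8 genes the Padi6-line replicates moved the opposite way to the Tle6-line replicates, with no overlap between genotypes in either line, as did 3.97% of the 17628 genes tested in both. Smg9 was apart in both lines in the same direction, at -4.27 and -0.51. The Padi6-line log2 fold change was 0.48 for Skint5, 0.44 for Skint6 and 0.30 for Gpat3, all lower in the Tle6 KO, and -0.57 for Plcl1, which was higher in the Tle6 KO. The difference between the lines was not tested, and none of these passed the Padi6-line test of edgeR.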

How the results depend on the processing

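The Padi6 line had 440 genes past the threshold in edgeR's quasi-likelihood test, and 1625 with no filter on low counts, 1329 with DESeq2 and 61 to 258 with 1 replicate left out (61 without het replicate 3). The Tle6 line had 329, and 1447 with no filter, 1719 with DESeq2, 120 with only library A of het replicate 2 and 119 to 292 with 1 replicate left out. Of the 8 genes, 0 passed in the Padi6 line, and 2 with no filter (Skint5 and Plcl1) and 1 with DESeq2 (Skint5); with 1 replicate left out the count stayed 0. Directions held for 6 of the 7, while Defb41 ranged from -0.41 to 0.42. In the Tle6 line the fitted direction held under every alternative that gave a value. With only library B of het replicate 2, Il20ra, Skint5 and Skint6 failed the filter on low counts and had no value. The genotypes' replicates were apart for 8 of the 8 genes, for 7 with only library A and for 6 with only library B. Those 6 include Il20ra, but only by 2 counts (0.0267 CPM) in library 2B against 1 count (0.0138 CPM) in KO replicate 3, both near 0. The fitted log2 fold change depended on single replicates: Plcl1 was 6.91 when het replicate 1 and 12.82 when het replicate 2 was left out, Pknox2 was -8.39 and Gpat3 -6.03 without KO replicate 1, Smg9 was -2.83 or -5.01 when het replicate 1 or 2 was left out, and Skint6 was -10.47 without KO replicate 2. Leaving out het replicate 1 or 2 gave 12.90 or 9.86 for Defb41, and Il20ra was -13.51 without het replicate 1 and -16.57 without KO replicate 3.

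The 14 on-off genes of the Tle6 line became 5 with limits of 0.5 and 10 CPM, 24 with limits of 2 and 5 CPM, 9 with separate libraries and 14 to 29 with 1 replicate left out (27 without het replicate 1, 29 without het replicate 2). The 0 of the Padi6 line became 3 with limits of 2 and 5 CPM. The 78 genes that differed between the libraries of het replicate 2 became 9 with limits of 0.5 and 10 CPM and 334 with limits of 2 and 5 CPM.

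Whether the replicate numbers pair the samples could not be decided from these values. Deviations of same-numbered het and KO replicates correlated at 0.152, 0.048 and 0.093 (Padi6 line) and 0.055 and 0.115 (Tle6 line). Not every sample correlated best with its own number. With only 2 het replicates in the Tle6 line, their deviations mirror each other, so the check cannot decide there. With the replicate block, 859 genes of the Padi6 line and 57 of the Tle6 line passed, and 1 of the 8 genes passed in the Padi6 line (Skint5, adjusted p = 0.0378, edgeR). The cause of these changes was not tested. Depth limited Il20ra, Skint5, Skint6 and Defb41, which had 2 counts or fewer in their low group.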
